A study of Mus musculus with 4 samples.

Results

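Genes of the G2 phase and mitosis were examined in leukemic whole bone marrow of C57BL/6 mice, on 2 microarrays of marrow labelled Hes1 null (MLL-AF9/Hes1-/-) and 2 of marrow labelled wild type (MLL-AF9/Hes1+/+). Both genotypes carry MLL-AF9, a chimeric protein that causes acute myeloid leukemia, and differ in Hes1, a repressor of transcription downstream of Notch, whose role in holding back this leukemia is what the study asks about. Age, treatment and time are not stated for either genotype. Nothing in the labels says that the samples of a genotype came from separate animals, so a p-value measures only the spread between these samples. A list of 50 genes was taken by symbol, and 49 of them had a probe set naming 1 symbol, out of 19938 such genes on the array. Cyclin B1 (Ccnb1) was not analysed here. Levels are log2 of the deposited intensities, differences subtract wild type from Hes1-null on that scale, and paired values are those of replicates 1 and 2 in that order.

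Entry into mitosis is driven by Cdk1 bound to A and B cyclins, which Cdc25 phosphatases activate and whose work Plk1 and the Aurora kinases extend. Condensin compacts the chromosomes, kinesin motors and microtubule-bundling proteins build the spindle, and the kinetochore links chromosomes to it. The spindle checkpoint holds back the anaphase promoting complex until every kinetochore is attached, after which separase splits sister chromatids and the cell divides. Most of these genes are transcribed mainly in late S phase and G2, under the MuvB complex with B-Myb and Foxm1. In bulk marrow, fewer cells of a type and less of these RNAs per cell cannot be told apart.

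Hes1-null replicate 2 stood apart from the other arrays. Xist, the RNA by which female cells silence an X chromosome, lay at 11.73 and 7.25 on the Hes1-null arrays, against 12.00 and 11.82 on the wild-type arrays. Within Hes1-null marrow 683 genes lay at least 2-fold apart between the arrays, against 109 within wild type. Hes1 itself lay at 5.43 and 5.84 in Hes1-null marrow and at 5.59 and 5.79 in wild type. All these levels were below the median of 6.36 over all genes, so Hes1 was dim in wild type as well. Which part of the gene was deleted is not stated either. For both reasons its level does not check the labels, and the genotypes below are as labelled. The leukocyte gene Ptprc (10.38 and 10.50 in Hes1-null marrow, against 10.39 and 10.41 in wild type) and the progenitor gene Cd34 (11.83 and 11.30, against 11.53 and 11.54) were measured on all arrays. Because the Hes1-null arrays differed from each other, each is given on its own below. The part of their other differences in the results that follow was not tested.

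Many of the promoters hold the same short motifs, shown here because these are the letters that MuvB and NF-Y are known to bind. MuvB binds the cell cycle genes homology region (CHR), searched here as TTTGAA or TTCGAA on either strand, and NF-Y binds CCAAT, also searched on both strands. RefSeq promoter windows of GRCm38.p6, running from 250 bases before to 50 bases after a transcript start, were matched by symbol for 42 of the 50 genes. CHR letters were present in 33 of the 42 (78.6%), against 21.7% of all 27025 genes with a window. CCAAT was present in 31 of the 42 (73.8%), against 41.1% of all genes, and both motifs in 28 (66.7%), against 8.61%. Of 46 CHR matches, counting 1 window a gene, 32 began within 50 bases of the transcript start. A match is a description of the letters and no evidence of binding. The windows printed run from 120 bases before to 30 bases after the start, 5′ to 3′ on the gene's strand, with CHR and CCAAT letters in capitals. Kif23 (chr9:61946770-61946919, minus strand) had the smallest p of the genes examined and Ttk (chr9:83834569-83834718, plus strand) the widest gap between the Hes1-null arrays. Ccnb2 (chr9:70421525-70421674, minus strand), Cdc20 (chr4:118437314-118437463, minus strand) and Racgap1 (chr15:99651627-99651776, minus strand) show different numbers and orders of the motifs. Cks2 (chr13:51645112-51645261, plus strand) has CCAAT letters without a CHR, and Nuf2 (chr1:169531435-169531584, minus strand) has neither in the stretch shown.
Kif23: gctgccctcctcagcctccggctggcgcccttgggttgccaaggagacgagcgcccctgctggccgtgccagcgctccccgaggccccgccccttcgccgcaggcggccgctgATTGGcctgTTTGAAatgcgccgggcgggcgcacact
Ttk: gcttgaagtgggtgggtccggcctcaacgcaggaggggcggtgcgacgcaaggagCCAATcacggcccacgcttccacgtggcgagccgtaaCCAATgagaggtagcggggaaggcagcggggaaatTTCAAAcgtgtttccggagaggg
Ccnb2: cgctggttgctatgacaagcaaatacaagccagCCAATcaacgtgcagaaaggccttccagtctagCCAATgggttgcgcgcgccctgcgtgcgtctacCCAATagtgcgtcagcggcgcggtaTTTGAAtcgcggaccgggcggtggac
Cdc20: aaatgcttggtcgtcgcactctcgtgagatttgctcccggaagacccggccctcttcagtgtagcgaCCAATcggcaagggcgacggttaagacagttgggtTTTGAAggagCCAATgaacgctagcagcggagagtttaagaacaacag
Racgap1: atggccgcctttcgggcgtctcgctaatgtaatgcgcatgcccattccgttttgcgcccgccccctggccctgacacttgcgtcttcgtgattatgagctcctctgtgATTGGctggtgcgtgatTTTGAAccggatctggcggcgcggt
Cks2: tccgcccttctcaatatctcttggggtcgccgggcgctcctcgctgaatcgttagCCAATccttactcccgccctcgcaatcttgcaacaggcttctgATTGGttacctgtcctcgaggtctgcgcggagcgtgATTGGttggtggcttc
Nuf2: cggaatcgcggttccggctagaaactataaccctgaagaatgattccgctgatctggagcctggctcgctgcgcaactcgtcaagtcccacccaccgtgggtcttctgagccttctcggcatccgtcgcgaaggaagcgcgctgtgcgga

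In the printed stretch of Ccnb2 the CCAAT letters began 87, 54 and 21 bases before the transcript start and a CHR at position 5 of the transcript. A further CHR match of Ccnb2 lay upstream of that stretch, at -167. In Ttk they began 65 and 28 bases before it, and a CHR, read on the other strand, at position 8. In Kif23 the CCAAT letters lay on the other strand, 7 bases before the start, a few bases upstream of a CHR at position 3. Outside the list, CHR letters were found in 24 of 39 further mitosis genes (61.5%), in 6 of 23 genes of S phase and replication (26.1%) and in 2 of 14 subunits of the anaphase promoting complex (14.3%).

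**Figure D1:**
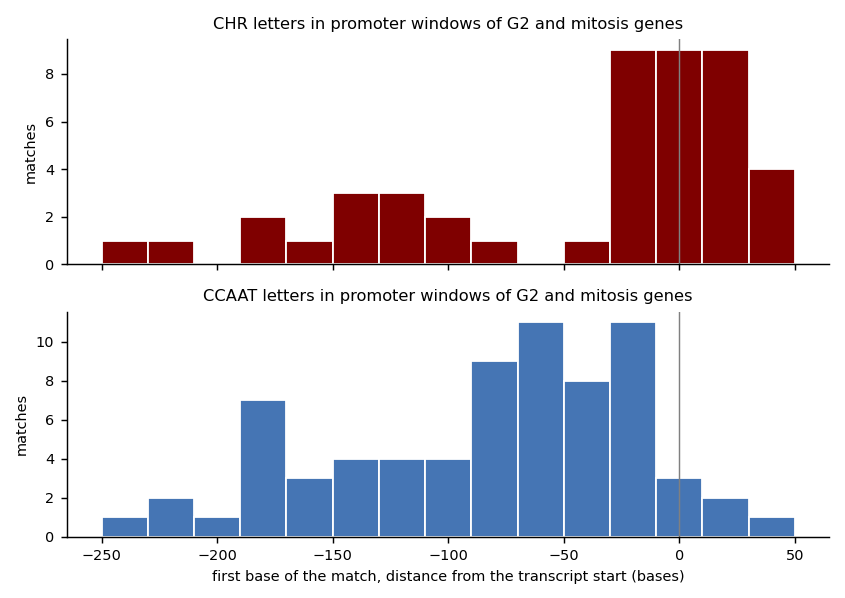
Number of CHR matches (upper panel) and CCAAT matches (lower panel) by the distance of their first base from the transcript start, in bases, in promoter windows of the G2 and mitosis genes (1 window a gene). CHR matches cluster around the start, with 32 of 46 within 50 bases of it, and CCAAT matches lie mostly upstream, with a median distance of -68 bases.

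Between genotypes the G2 and mitosis genes lay slightly lower in Hes1-null marrow, and no gene passed the test. The median difference over the 49 genes was -0.22, against -0.02 over all genes, and 44 of the 49 differences were below 0 (53.6% of all genes). By limma with Benjamini-Hochberg adjustment over all genes, 0 of the 49 passed an adjusted p of 0.05 in either direction, where 0.0752% of all genes passed as lower and 0.0702% as higher. At an unadjusted p of 0.05, 1 gene was lower, Kif23, which is 2.04% of the 49 against a background of 4.78%, and 0 were higher against a background of 3.51%. Both Hes1-null arrays lay below both wild-type arrays for 20 of the 49 genes, against 20.6% of all genes, and above both for 2, Cks2 and Cdc25b, against 17.4%. The 95% interval of the difference excluded a 2-fold fall for 42 of the 49 genes, against 18396 of all 19938 genes. It included 0 for 48 of the 49, against 18286 of all 19938. A missed threshold does not show that the genotypes were alike.

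**Figure D2:**
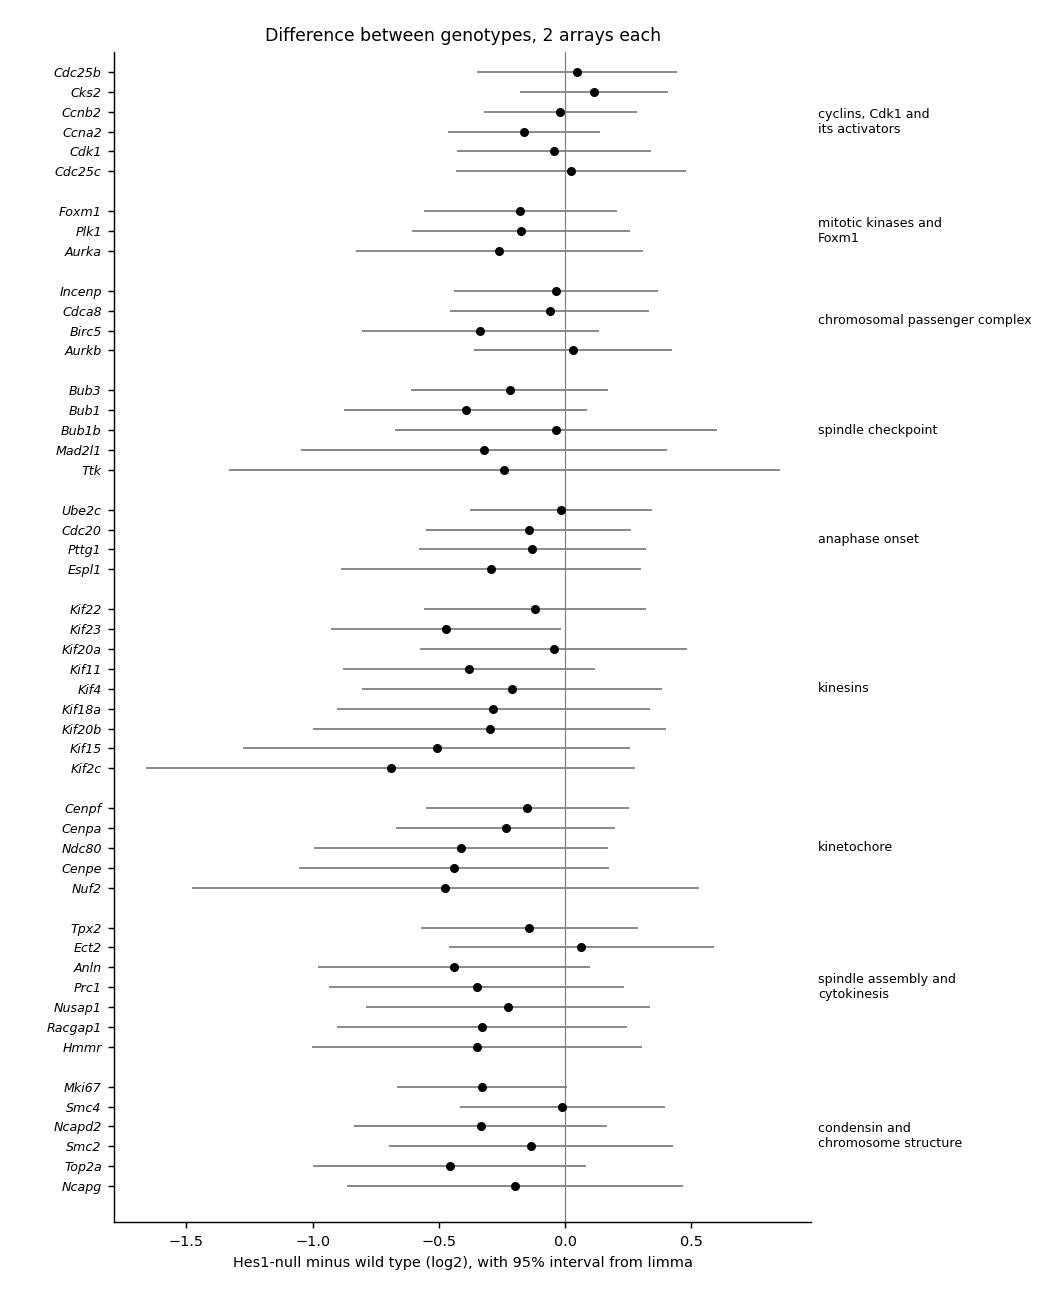
Difference between Hes1-null and wild-type marrow on the log2 scale for each of the 49 genes (points), with the 95% interval from limma (bars, 2 arrays per genotype), grouped by role. Of the points, 44 lie left of 0, and Kif23 is the 1 gene whose interval leaves out 0.

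The lower levels lay mostly on Hes1-null replicate 2. On that array the median of the 49 genes was -0.45 from the mean of the wild-type arrays, and 46 of the 49 lay below both wild-type arrays, while 2 lay above both (background 42.1%). The background for lying below was 40.0% of all genes, and 50.3% in the upper range of mean level, from the median of all genes upward, which holds all 49. In that range 3717 of 9969 genes lay above both wild-type arrays on replicate 2, and the median was -0.06. On Hes1-null replicate 1 the median of the 49 genes was -0.01 from the wild-type mean, against 0.05 over the same upper range. On that array 20 genes lay below both wild-type arrays (background 44.3%, or 33.0% in the upper range). Another 17 lay above both (background 34.4%, or 4924 of 9969 genes in the upper range). Replicate 2 was the lowest of the 4 arrays for 44 of the 49 genes (30.6% of all genes, or 4379 of 9969 in the upper range). Replicate 2 minus replicate 1 had a median of -0.48 over the 49 genes, 0.05 over all genes and -0.11 over the upper range. It was -0.5 or lower for 22 genes (11.4% of all genes, or 1946 of 9969 in the upper range). It was -1 or lower for 3, Ttk, Nuf2 and Kif2c (2.55%, or 423 of 9969 in the upper range). Between the wild-type arrays the same genes differed by -0.24 to 0.14. The wild-type arrays thus lay close together for these genes, and the Hes1-null arrays did not.

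**Figure D3:**
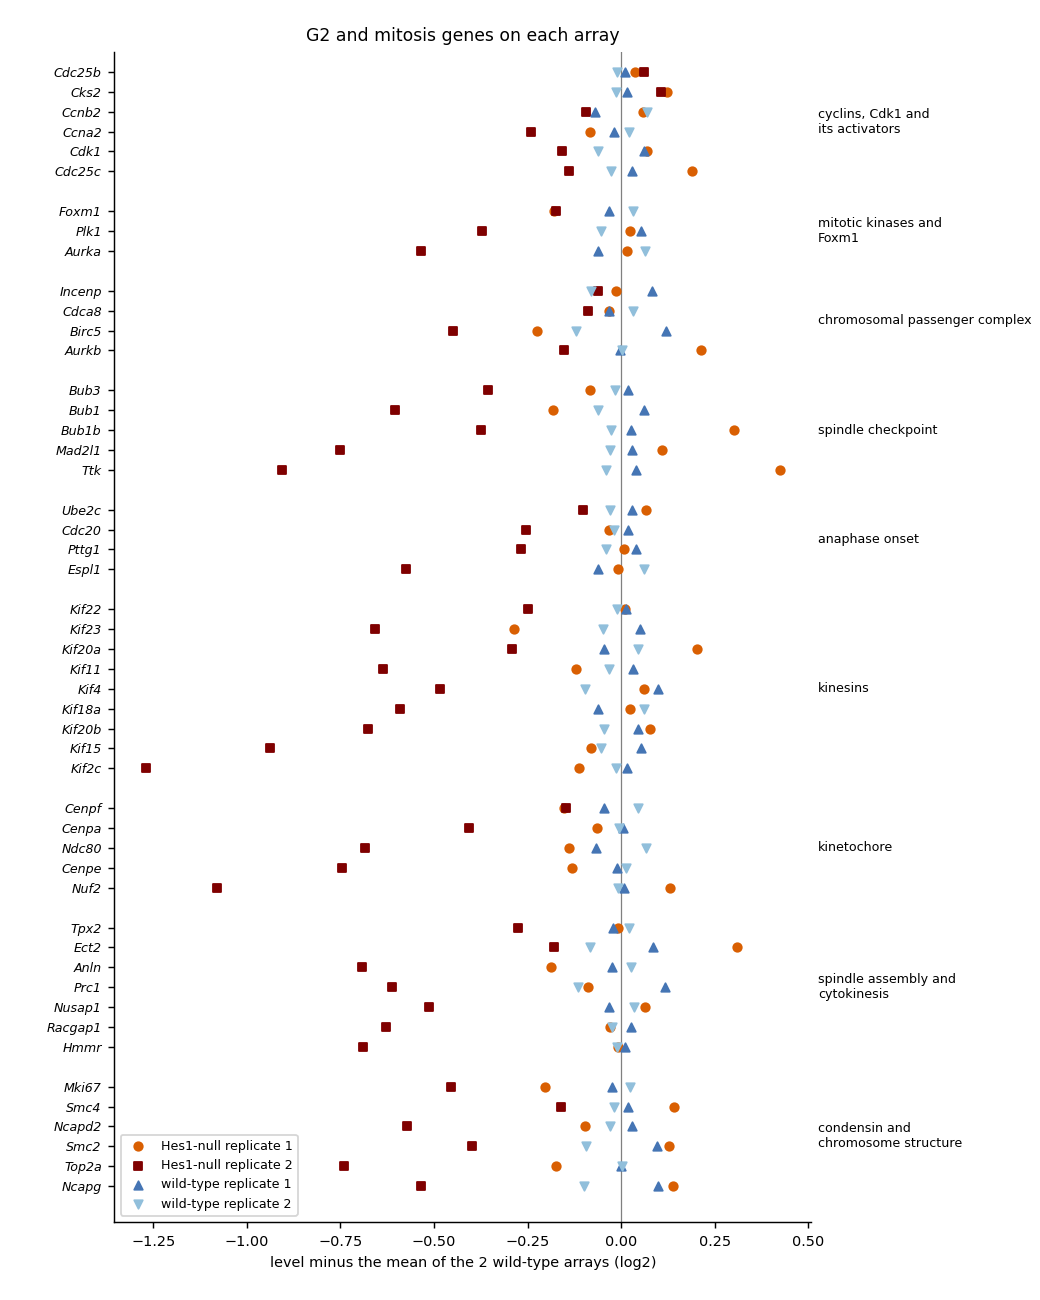
Level of each of the 49 genes on each array, as the log2 difference from the mean of the 2 wild-type arrays, grouped by role and, within a role, ordered by the gap between the Hes1-null arrays. Hes1-null replicate 2 (squares) is the lowest point for 44 genes, while replicate 1 (circles) falls among the wild-type arrays (triangles) or on either side of them.

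With a lone Hes1-null array in the fit, assumed to vary like the wild-type arrays, the result depended on which array it was. That assumption did not hold, as 683 genes lay at least 2-fold apart between the Hes1-null arrays, against 109 within wild type. The p-values of these fits leave out the spread between Hes1-null arrays and are too small for it, so the counts describe the fits only. Without Hes1-null replicate 1, 9 of the 49 genes were lower at an adjusted p under 0.05 by limma (3.44% of all genes), and 33 at an unadjusted p under 0.05 (16.3%). The 9 were the kinesin genes Kif2c, Kif15 and Kif11, the checkpoint genes Mad2l1 and Ttk, the kinetochore genes Nuf2 and Cenpe, and Top2a and Anln. Among these the largest difference in that fit was -1.27 (Kif2c, adjusted p = 0.0381) and the smallest -0.64 (Kif11, adjusted p = 0.0494). Without Hes1-null replicate 2, 0 of the 49 were lower at the adjusted threshold (0.0251% of all genes) and 1, Kif23, at the unadjusted one (8.14%). In that fit 2 of the 49 were higher at an unadjusted p under 0.05 (8.68% of all genes), Ttk by 0.42 (adjusted p = 0.235 by limma) and Bub1b by 0.30 (adjusted p = 0.275). The difference between the Hes1-null arrays themselves has no replicate and was not tested.

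**Figure D4:**
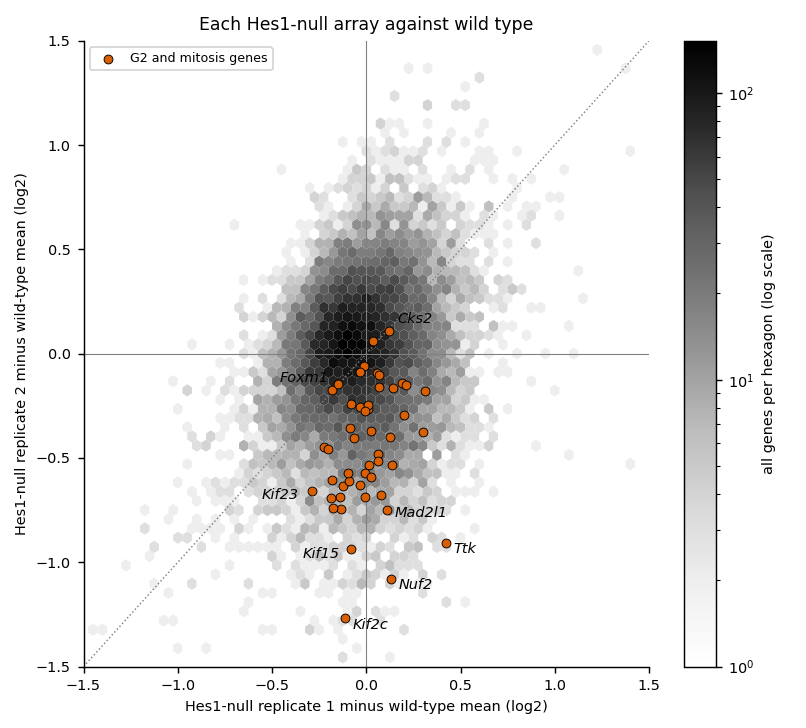
Each gene's level on Hes1-null replicate 1 (horizontal axis) and Hes1-null replicate 2 (vertical axis), each minus the wild-type mean on the log2 scale, with the G2 and mitosis genes as orange points over all genes as grey hexagons. The 340 genes beyond 1.5 on either axis are not drawn; the orange points scatter around 0 on the horizontal axis and reach -1.27 (Kif2c) on the vertical one.

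The cyclins, Cdk1 and its activators had the median difference nearest 0 of the 9 roles, 0.00 over 6 genes, and gaps between the Hes1-null arrays of at most 0.33. Cdk1, the mitotic kinase itself, lay at 10.32 and 10.09 in Hes1-null marrow, against 10.31 and 10.19 in wild type (-0.04 ± 0.15, SE, n = 2 arrays per genotype here and in what follows). Ccna2, the cyclin of S phase and G2, lay at 11.07 and 10.91 against 11.14 and 11.18 (-0.16 ± 0.12, limma's unadjusted p = 0.231). The arrays of Ccna2 did not overlap between genotypes. Ccnb2, a B-type cyclin, lay at 11.39 and 11.24 against 11.26 and 11.40, and the genotypes overlapped. Cks2, a small Cdk-binding protein, lay at 10.87 and 10.86 in Hes1-null marrow, above 10.76 and 10.73 in wild type (0.11 ± 0.12, unadjusted p = 0.367 by limma). All 3 of its probe sets gave a difference of that sign, from 0.11 to 0.16. Cdc25b, a phosphatase that activates Cdk1, lay at 8.57 and 8.59 against 8.54 and 8.52 (0.05 ± 0.16). Cks2 and Cdc25b were the 2 of the 49 genes that lay above wild type on both Hes1-null arrays (17.4% of all genes). The related phosphatase gene Cdc25c lay at 7.49 and 7.17 against 7.34 and 7.28, on either side of wild type.

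Among the mitotic kinases and Foxm1 the median difference was -0.18 over 3 genes. Plk1, which promotes Cdk1 activation and spindle assembly, lay at 10.86 and 10.46 in Hes1-null marrow, against 10.89 and 10.78 in wild type (-0.17 ± 0.17, unadjusted p = 0.355 by limma). Aurka, the centrosomal Aurora kinase, lay at 9.60 and 9.05 against 9.53 and 9.65 (-0.26 ± 0.23). In both genes replicate 1 lay between the wild-type arrays and replicate 2 below them. Foxm1, the transcription factor that activates late cell cycle genes, lay at 9.15 and 9.16 in Hes1-null marrow, below 9.30 and 9.36 in wild type (-0.18 ± 0.15, unadjusted p = 0.292 by limma). Its Hes1-null arrays were nearly equal, unlike those of the kinases.

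The chromosomal passenger complex, which places Aurora B at centromeres to correct faulty attachments, had a median difference of -0.05 over 4 genes. Its kinase gene Aurkb lay at 11.26 and 10.89 in Hes1-null marrow, on either side of 11.04 and 11.05 in wild type (0.03 ± 0.16). Birc5, encoding survivin, lay at 8.21 and 7.99, below 8.55 and 8.31 in wild type (-0.34 ± 0.19, unadjusted p = 0.127 by limma). The scaffold gene Incenp lay at 9.13 and 9.08 against 9.22 and 9.06, and was 1 of the 3 genes not below both wild-type arrays on replicate 2. Cdca8, encoding borealin, lay at 8.90 and 8.85 against 8.90 and 8.97 (-0.06 ± 0.16). Birc5 was the member of the complex whose difference exceeded its standard error.

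The spindle checkpoint genes had a median difference of -0.24 over 5 genes, and all 5 lay below both wild-type arrays on replicate 2 (40.0% of all genes). Ttk, the Mps1 kinase that starts checkpoint signalling, lay at 8.51 and 7.18 in Hes1-null marrow, against 8.13 and 8.05 in wild type. It was thus above both wild-type arrays on replicate 1 and below both on replicate 2, with the widest gap of the 49 genes. Mad2l1, whose product inhibits the anaphase promoting complex, lay at 10.96 and 10.10 against 10.88 and 10.82 (-0.32 ± 0.29, unadjusted p = 0.312 by limma). Bub1b, encoding BubR1, lay at 9.78 and 9.10 against 9.503 and 9.45. Both had the same arrangement as Ttk. Bub1, a checkpoint kinase, lay at 9.91 and 9.49, below 10.16 and 10.04 in wild type on both arrays (-0.39 ± 0.19, unadjusted p = 0.0913 by limma). Bub3, the binding partner of Bub1 and BubR1, lay at 10.23 and 9.96 against 10.33 and 10.29 (-0.22 ± 0.16). Bub1 and Bub3 were the 2 of 5 checkpoint genes whose genotypes did not overlap, both lower (20.6% of all genes).

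Genes of anaphase onset had a median difference of -0.14 over 4 genes. Cdc20, the activator of the anaphase promoting complex in mitosis, lay at 9.52 and 9.30 in Hes1-null marrow, against 9.57 and 9.53 in wild type (-0.14 ± 0.16, unadjusted p = 0.413 by limma). Ube2c, its ubiquitin-conjugating enzyme, lay at 10.21 and 10.05 against 10.18 and 10.12 (-0.02 ± 0.14). Espl1, encoding separase, lay at 8.40 and 7.84 against 8.35 and 8.47 (-0.29 ± 0.24), the widest gap between Hes1-null arrays in this role. Pttg1, encoding securin, which restrains separase, lay at 8.85 and 8.58 against 8.88 and 8.80 (-0.13 ± 0.18). For all 4 genes replicate 2 was the lowest array (30.6% of all genes).

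The kinesins formed the largest role, with a median difference of -0.30 over 9 genes and all 9 differences below 0. Kif23, a motor of the central spindle needed for cytokinesis, lay at 9.80 and 9.43 in Hes1-null marrow, below 10.14 and 10.04 in wild type. Its difference was -0.47 ± 0.18 (unadjusted p = 0.0449, adjusted p = 0.593 by limma). The unadjusted threshold was missed, with 0 genes lower, when either wild-type array was left out or arrays were centred on their medians. Kif2c, encoding the microtubule depolymerase MCAK, had the largest difference of the 49 genes, -0.69 ± 0.39 (unadjusted p = 0.129 by limma). It lay at 8.63 and 7.47 in Hes1-null marrow, against 8.75 and 8.72 in wild type, which is -0.11 from the wild-type mean on replicate 1 and -1.27 on replicate 2. The spindle motor genes Kif15 (9.11 and 8.26, against 9.25 and 9.14, -0.51 ± 0.30) and Kif11 (10.68 and 10.17, against 10.84 and 10.77, -0.38 ± 0.20) lay below both wild-type arrays on both Hes1-null arrays. Kif18a, a motor that dampens chromosome movement, lay at 8.004 and 7.39 against 7.92 and 8.04. Kif20b lay at 7.92 and 7.17 against 7.89 and 7.80, and the chromokinesin gene Kif4 at 8.14 and 7.59 against 8.17 and 7.98. In these 3 genes replicate 1 was within the wild-type values or just above them. Kif20a, which acts in cytokinesis, lay at 9.81 and 9.31 on either side of 9.56 and 9.65 in wild type. Kif22, which moves chromosome arms, had the smallest gap of the kinesins, at 8.75 and 8.49 against 8.75 and 8.73. The 9 gaps between the Hes1-null arrays ran from -1.16 to -0.26.

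Kinetochore genes had the lowest median difference of the 9 roles, -0.41 over 5 genes, and for 4 of the 5 both Hes1-null arrays lay below both wild-type arrays (20.6% of all genes). Ndc80 and Nuf2 encode partners in the complex that grips microtubules. Ndc80 lay at 7.94 and 7.39 in Hes1-null marrow, below 8.01 and 8.15 in wild type (-0.41 ± 0.23, unadjusted p = 0.131 by limma). Nuf2 lay at 9.21 and 7.996 against 9.08 and 9.07 (-0.47 ± 0.40), above wild type on replicate 1 and below it on replicate 2. The partners thus lay on opposite sides of wild type on replicate 1. Cenpe, a kinetochore motor, lay at 8.73 and 8.12 against 8.85 and 8.87 (-0.44 ± 0.24, unadjusted p = 0.128 by limma). Cenpa, the histone variant that marks centromeres, lay at 9.98 and 9.64 against 10.05 and 10.04 (-0.24 ± 0.17). Cenpf, a kinetochore protein, lay at 8.04 and 8.05 against 8.15 and 8.24 (-0.15 ± 0.16), and like Foxm1 it was nearly equal on the Hes1-null arrays.

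Genes of spindle assembly and cytokinesis had a median difference of -0.33 over 7 genes. Anln, the anillin scaffold of the contractile ring, lay at 9.40 and 8.89 in Hes1-null marrow, below 9.56 and 9.61 in wild type (-0.44 ± 0.21, unadjusted p = 0.0912 by limma). Racgap1, which with the product of Kif23 forms centralspindlin, lay at 9.98 and 9.38 against 10.03 and 9.98 (-0.33 ± 0.23). Prc1, a bundler of antiparallel microtubules, lay at 9.09 and 8.57 against 9.30 and 9.06 (-0.35 ± 0.23). Of the 7 genes Anln and Racgap1 had genotypes that did not overlap, both lower (20.6% of all genes). The spindle factor genes Nusap1 (10.10 and 9.52, against 9.999 and 10.06) and Hmmr (8.20 and 7.51, against 8.22 and 8.19) lay below both wild-type arrays on replicate 2 and not on replicate 1. Tpx2, an activator of Aurora A, lay at 9.34 and 9.07 against 9.32 and 9.36. Ect2, the exchange factor that activates RhoA for division, was the exception in sign, at 10.20 and 9.71 against 9.97 and 9.80 (0.06 ± 0.21).

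Condensin and chromosome structure genes had a median difference of -0.26 over 6 genes. Mki67, the proliferation antigen that coats mitotic chromosomes, lay at 11.08 and 10.83 in Hes1-null marrow, below 11.26 and 11.31 in wild type (-0.33 ± 0.13, unadjusted p = 0.0530, adjusted p = 0.609 by limma). Top2a, the topoisomerase that untangles sister chromatids, lay at 10.35 and 9.78 against 10.52 and 10.52 (-0.46 ± 0.21, unadjusted p = 0.0820 by limma). The other probe set of Top2a was dim, at 2.33 to 2.78 over the arrays, with a difference of 0.02. The condensin I subunit gene Ncapd2 lay at 10.04 and 9.57 against 10.17 and 10.11 (-0.33 ± 0.20), with no overlap. The core subunit genes Smc2 (9.77 and 9.24, against 9.73 and 9.54) and Smc4 (10.33 and 10.03, against 10.21 and 10.17) lay above both wild-type arrays on replicate 1 and below both on replicate 2. Ncapg, another condensin I subunit gene, had the same arrangement (8.97 and 8.30, against 8.93 and 8.73).

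Other genes of the cell cycle were read in the same way. Of 43 further mitosis genes, 0 passed the adjusted threshold and 2 were lower at an unadjusted p of 0.05, a share near the 4.78% of all genes. They were the spindle pole gene Aspm (-0.66 ± 0.20) and Gas2l3 (-0.75 ± 0.23). The median of the 43 was 0.01 on Hes1-null replicate 1 and -0.51 on replicate 2, with 38 of 43 below both wild-type arrays on replicate 2 (40.0% of all genes). Of 30 genes of S phase and replication, 0 passed at either threshold, with medians of 0.02 on replicate 1 and -0.38 on replicate 2 and 25 of 30 below both wild-type arrays on replicate 2 (against the same 40.0%). The polymerase gene Pola1 lay at 8.31 and 7.48 in Hes1-null marrow, against 8.58 and 8.47 in wild type, and the helicase cofactor gene Cdc45 at 8.95 and 8.27 against 9.12 and 9.07. Cdt1, which licenses origins in G1, lay at 10.21 and 10.34 against 10.03 and 10.04. No gene passed the adjusted threshold among the anaphase promoting complex subunits (0 of 15, median -0.22 on replicate 2), the cohesin and Smc5/6 genes (0 of 11, median -0.12) or the MuvB, DREAM and E2F factors (0 of 18, median -0.03). In the last list 1 of 18 genes was lower at the unadjusted threshold (4.78% of all genes), the retinoblastoma gene Rb1 (-0.53 ± 0.16).

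**Figure D5:**
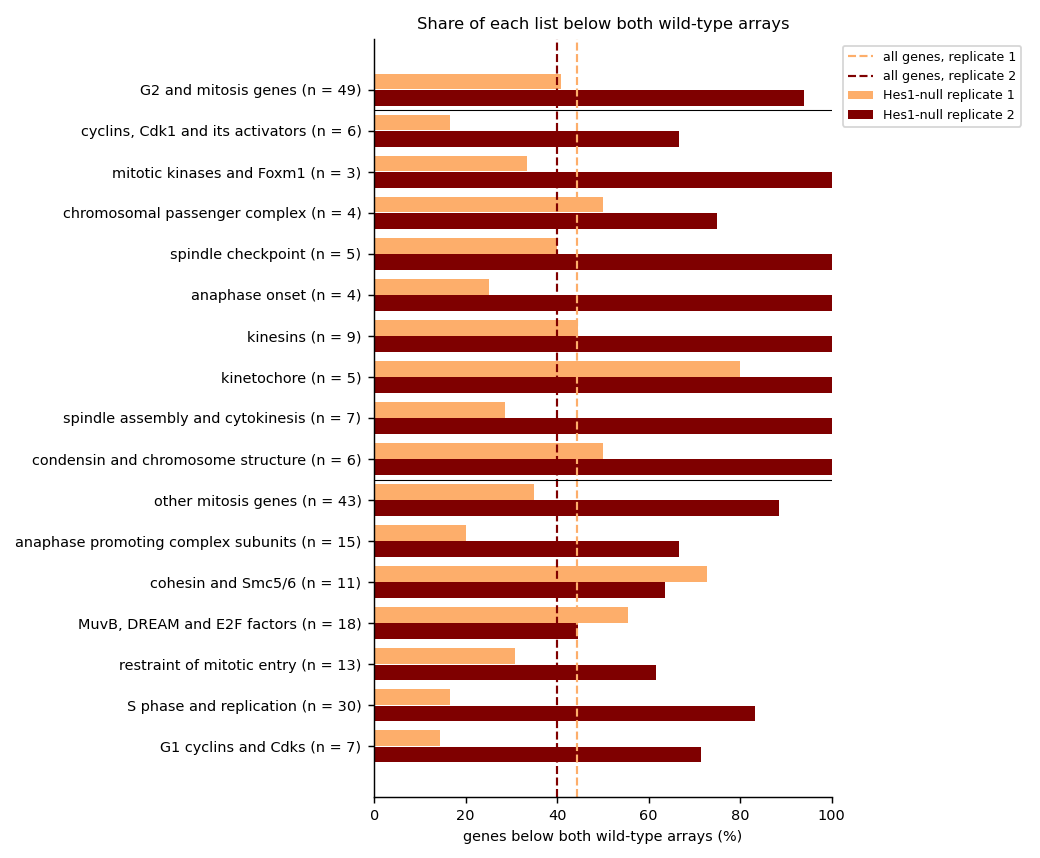
Share of the genes of each list that lay below both wild-type arrays on Hes1-null replicate 1 (light bars) and Hes1-null replicate 2 (dark bars), in percent, with the share over all genes as dashed lines (44.3% and 40.0%). The G2 and mitosis genes reach 93.9% on replicate 2 and 40.8% on replicate 1; the upper block below them splits them by role and the lower block holds other cell cycle lists.

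Of 13 measured genes that restrain mitotic entry, 0 passed the adjusted threshold, while 2 were lower (4.78% of all genes) and 1 was higher (3.51%) at an unadjusted p of 0.05. Btg2, an antiproliferative gene, lay at 10.20 and 10.66 in Hes1-null marrow, above 9.36 and 9.38 in wild type (1.07 ± 0.20, adjusted p = 0.202 by limma). The stress-induced genes Gadd45b (-0.67 ± 0.20) and Sesn1 (-0.58 ± 0.21) were the 2 lower ones. Of 7 G1 cyclins and Cdks with Myc, 0 passed at either threshold. Myc, a transcription factor that drives growth, lay at 11.56 and 10.02 in Hes1-null marrow, against 11.14 and 11.42 in wild type, and Cdk4 at 12.19 and 11.26 against 12.24 and 11.99. Both were lowest on replicate 2.

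The levels were also set beside the promoter letters. Among measured genes with a window, replicate 2 minus replicate 1 had a median of -0.51 for the 33 with CHR letters and of -0.60 for the 8 without. Replicate 2 lay below both wild-type arrays for 32 of the 33 and 7 of the 8. Over all measured genes with a window the shares were 41.3% of 2974 genes with CHR letters and 40.8% of 12640 without. Nuf2, which holds neither motif in the printed stretch, had a gap of -1.21, and Ttk, which holds both, a gap of -1.33. Ccnb2, with 3 matches to CCAAT and 2 to the CHR in its whole window, had a gap of -0.15.

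Marker genes of blasts and of other marrow cells differed between the arrays as well. The summed intensities of the 11 of 11 blast and myeloid markers were 19333 and 16658 in Hes1-null marrow, against 21144 and 20194 in wild type. Without Mpo, a choice made after seeing the data, the sums were 15920 and 15539 in Hes1-null marrow, against 13842 and 13595 in wild type. Linear sums weigh bright genes most, among them Flt3, which was higher in Hes1-null marrow (levels below). The median log2 levels without Mpo were 10.10 and 10.29, against 10.25 and 10.34 in wild type, so the list as a whole was not higher. The sums of 10 of 11 monocyte and macrophage markers were 4597 and 4739 against 7050 and 7059, and those of 12 of 12 late neutrophil markers 10105 and 13139 against 14390 and 23048. Vcam1, listed with the monocyte and macrophage markers (-2.62 ± 0.17, adjusted p = 0.0242), and the granule gene Ltf (-2.77 ± 0.23, adjusted p = 0.0398) passed limma's adjusted threshold as lower. Not all markers went that way. Differences were below 0 for 8 of the 10 monocyte and macrophage markers and 10 of the 12 late neutrophil markers (53.6% of all genes). In each of the 2 lists, 2 were above 0, 1 of them without overlap between genotypes. The sums of 8 of 12 erythroid markers were 625.6 and 656.8 in Hes1-null marrow, against 822.4 and 664.9 in wild type. Those of 9 of 10 B cell markers were 1816 and 1030 against 1255 and 1245, and those of 9 of 10 T and NK cell markers 331.1 and 300.8 against 393.7 and 373.9. In the B cell list Cd79b was the brightest, at 10.48 and 9.496 in Hes1-null marrow, against 9.85 and 9.86 in wild type. The other markers of that list lay at 7.05 or lower on every array, so the B cell sum mostly follows Cd79b. Levels on single arrays ran from 3.96 to 8.44 in the erythroid list and from 3.78 to 10.48 in the B cell list. In the T and NK cell list they ran from 2.29 to 7.10, against a median of 6.36 over all genes, so some of these markers were dim. The B cell and the T and NK cell sums were lowest on Hes1-null replicate 2, as was the blast sum with Mpo but not without it, and the monocyte, neutrophil and erythroid sums on replicate 1. Kit (8.29 and 6.39 in Hes1-null marrow, against 9.02 and 8.87 in wild type) and Mpo (11.74 and 10.13, against 12.83 and 12.69), genes of myeloid progenitors, were lowest on replicate 2. Flt3, a receptor of early progenitors and the gene with the smallest p of the blast and myeloid list, lay at 11.79 and 11.50 in Hes1-null marrow, above 10.13 and 9.27 in wild type (1.94 ± 0.30, adjusted p = 0.142 by limma). Csf1r, the receptor for macrophage colony-stimulating factor, lay at 8.84 and 9.61, below 10.37 and 10.29 (-1.10 ± 0.27), and was higher on replicate 2 than on replicate 1, as were Itgam, Cebpa and Spi1. Meis1 (9.81 and 9.30, against 9.33 and 9.18) and Hoxa9 (10.50 and 10.78, against 10.56 and 10.40), which MLL fusions are known to activate, were not lowest on replicate 2. The part of the cell makeup in the levels of the G2 and mitosis genes was not tested.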

How the data were processed

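Total RNA of each marrow was measured on 1 Affymetrix mouse array. Per the submitters' processing notes, the authors used RMA in Affymetrix Expression Console (releases not given in the sources used here). Values as deposited are intensities on a linear scale, with array medians of 65.0 to 67.3, so log2 of the deposited values was taken, with no value added. All 4 sample columns were used. Such values hold no depth, so the number of arrays limits precision.

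Of 35556 probe sets, those with 1 symbol in the platform annotation (21789) were kept, the one with the highest mean standing for its gene, with no filter on dim genes. limma 3.58.1 (R 4.3.3, lmFit and eBayes with trend, two-sided) compared the genotypes as labelled, with p-values adjusted by Benjamini-Hochberg over 19938 genes. The code was tested on simulated data. Lists are described by counts and medians beside the same over all genes.

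The members and lists were chosen with earlier results of these data known. Every measured member is named, and from each other list up to 4 genes with the smallest unadjusted p. Hes1 and Xist are given beside them, and neither level checks the genotype labels. Ptprc, Cd34, Meis1, Hoxa9, Itgam, Cebpa, Spi1 and Cd79b fall outside that rule and were chosen after their values were seen, as were the 7 promoters printed. Alternatives were a replicate block, further quantile normalization, centring, filters on dim genes, no trend, array weights, the mean of probe sets and each array left out.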

Additional observations from a re-analysis of the deposited data

How the results depend on the processing

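No G2 or mitosis gene passed an adjusted p of 0.05 by limma under the alternatives run, except for 9 without Hes1-null replicate 1, so the count ranged from 0 to 9 with an array left out. Over the same fits the median difference ranged from -0.45 (without Hes1-null replicate 1) to -0.0076 (without Hes1-null replicate 2), the count below 0 from 25 to 47, and the count lower at an unadjusted p of 0.05 from 0 to 33. That last count, 1 as reported, was 0 after centring, 2 after further quantile normalization and 3 with array weights. The 29 calls over all genes became 6 to 999 with an array left out, 17 with the 25th percentile filter, 5 with the median filter and 45 with array weights. With the replicate number as a block there were 89 calls over all genes and 0 among the members. Same-numbered arrays deviated together with a correlation of 0.050 across genes, and what a replicate number stands for is not stated. The difference of Ccnb2 turned to 0.014 after centring and 0.015 after further quantile normalization. With an array left out it ranged from -0.094 to 0.057, that of Cdk1 from -0.16 to 0.068, that of Plk1 from -0.37 to 0.024 and that of Aurkb from -0.15 to 0.21, and none of these was called. Medians of the 9 roles then lay between -0.69 and 0.11. Under 3 alternatives added after seeing the data, 43 to 46 of the 49 genes lay below both wild-type arrays on Hes1-null replicate 2 (37.1% to 39.9% of all genes). On replicate 1 the count, 20 as reported (44.3% of all genes), was 16 after centring (37.9%) and 19 with the mean of probe sets (44.4%). After further quantile normalization it was 25 of the 49 (37.6% of all genes), so its standing against all genes depended on the scaling. Fits with a lone Hes1-null array took their spread from the wild-type arrays alone, which lay closer together, so their counts are not comparable with the others. The cause of these changes was not tested.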
